A study of Mus musculus with 4 samples.

Results

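The semaphorin, plexin, neuropilin, Eph, ephrin, Robo, Slit and netrin genes were examined in chromatin-associated RNA of mouse embryonic stem cells after degradation of ZBTB21, a DNA-binding protein with a BTB domain and zinc fingers. Members were all protein-coding genes of the mm10 annotation with a symbol of the Sema3 to Sema7, Plxna to Plxnd, Nrp1, Nrp2, Epha, Ephb, Efna, Efnb, Robo, Slit1 to Slit3 or Ntn families. The rule used names only and no measured value. It found 64 genes, which were 64 of the 36918 gene identifiers in the count table. Of these 64 genes, 52 had enough counts to be tested, and the 12 others are given as counts.

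ChAR-seq sequences the RNA that stays with the chromatin fraction, which is rich in RNA still being made, and reads were counted over introns and exons together. There were 2 groups with 2 libraries each. The ZBTB21 degron 6h libraries came from cells given 1 μg/ml doxycycline for 24 h and then 500 μM auxin (IAA) for 6 h, and the untreated libraries came from cells labelled as untreated, for which the sources do not say whether doxycycline was given. Effects of auxin or doxycycline themselves cannot be told apart from those of ZBTB21 loss in this comparison. The words after depletion name the treated group below. Cells of both groups were the ZBTB21-degron line, with a homozygous auxin-inducible degron and GFP on ZBTB21 and OsTIR1, the plant protein that auxin uses to mark a tagged protein for destruction, at the Rosa26 locus, and the line came from selected clones. Separate cultures are not stated, so p-values measure the spread between these libraries, which may be technical. Total counts were 6479842 and 4931027 in the ZBTB21 degron 6h libraries and 4761133 and 4262382 in the untreated libraries. Values are CPM, the counts of a gene scaled to a common library size with TMM, and 3 counts were worth between 0.456 and 0.711 CPM. They are relative to the typical gene, since fly spike-in counts were not used here. In such bulk libraries, fewer cells of a type and less RNA per cell cannot be told apart.

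These families are the classical guidance cues of the nervous system, and they also act in vessels, epithelia and early embryos. Semaphorins signal through plexins, with neuropilins as co-receptors for the secreted class 3 semaphorins. Ephrins are membrane-bound ligands of the Eph receptor tyrosine kinases, Slits are secreted ligands of Robo receptors, and netrins bind the receptors Dcc, neogenin and Unc5. Many of these genes carry very long introns, so gene length is given for each member whose level changed.

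To show the start regions of members that moved most with ample counts, RefSeq promoter windows are printed (250 bases before to 50 after an annotated start, GRCm38.p6). They are those of Sema4b, which was higher after ZBTB21 depletion, and of Slit3 and Sema5a, which were lower. Efnb3 was chosen by the same rule, but no RefSeq window was available for it. Capitals mark ACGTG or GCGTG on either strand (TATAAA was also searched and is in none of these windows), where CACGTG holds ACGTG on both strands and counts as 2. All windows are on the plus strand. The first Sema4b window is chr7:80186620-80186919, and the second, at a start inside the gene, is chr7:80198338-80198637. The Slit3 window is chr11:35121206-35121505 and the Sema5a window is chr15:32244563-32244862.
Sema4b, first start: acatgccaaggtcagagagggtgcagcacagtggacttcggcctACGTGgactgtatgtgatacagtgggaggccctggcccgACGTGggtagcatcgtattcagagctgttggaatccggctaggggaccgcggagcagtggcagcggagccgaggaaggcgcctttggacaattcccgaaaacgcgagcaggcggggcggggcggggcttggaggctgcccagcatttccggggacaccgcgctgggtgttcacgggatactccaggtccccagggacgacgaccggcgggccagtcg
Sema4b, second start: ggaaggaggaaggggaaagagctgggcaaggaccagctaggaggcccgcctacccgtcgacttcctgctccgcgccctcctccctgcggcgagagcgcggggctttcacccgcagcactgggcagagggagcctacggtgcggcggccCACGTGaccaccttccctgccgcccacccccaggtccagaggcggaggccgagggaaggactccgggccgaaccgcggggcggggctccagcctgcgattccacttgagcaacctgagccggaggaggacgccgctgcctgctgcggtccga
Slit3: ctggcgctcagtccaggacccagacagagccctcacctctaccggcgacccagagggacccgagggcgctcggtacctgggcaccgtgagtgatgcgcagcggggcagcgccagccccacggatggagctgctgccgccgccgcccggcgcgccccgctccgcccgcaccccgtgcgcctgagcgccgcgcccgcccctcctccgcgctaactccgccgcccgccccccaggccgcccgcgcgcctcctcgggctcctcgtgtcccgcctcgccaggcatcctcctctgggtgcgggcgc
Sema5a: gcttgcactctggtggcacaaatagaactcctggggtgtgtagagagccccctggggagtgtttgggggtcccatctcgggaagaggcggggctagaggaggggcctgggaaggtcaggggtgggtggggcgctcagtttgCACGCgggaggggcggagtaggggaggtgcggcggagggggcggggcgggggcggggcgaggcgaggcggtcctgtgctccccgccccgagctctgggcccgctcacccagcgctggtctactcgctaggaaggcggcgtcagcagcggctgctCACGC

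The first Sema4b window held 26 CpG and the second 28, each with 2 ACGTG matches. The Slit3 window was 78.3% GC with 41 CpG and held none of these motifs. The Sema5a window held 23 CpG and 2 GCGTG matches, both written here as the reverse complement CACGC. RefSeq windows matched 56 of the 64 members (72 windows). ACGTG was in 18.1% of the member windows and in 21.4% of all 19757 protein-coding windows, and GCGTG was in 38.9% of the member windows and in 40.1% of all. TATAAA was in 2.78% of the member windows (2 windows) and in 11.6% of all. Member windows had a median of 64.0% GC and 18.0 CpG, against 57.3% GC and 14 CpG over all protein-coding windows. Such matches are a description of letters in a window and say nothing of binding.

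Levels per kb of counted gene body spanned a wide range in these cells. The plexins Plxnb2 (8.98 CPM per kb, mean of 4 libraries) and Plxna1 (8.73) and the semaphorin Sema4b (7.08) stood highest, followed by the receptor Epha2 (5.89), Sema6c (4.36), the receptor Ephb4 (3.63) and the ligand Efna4 (2.92). The lowest was Epha3, at 0.000323 CPM per kb. The class 3 co-receptors were near the bottom of the tested genes, with 0.0312 CPM per kb for Nrp2 and 0.0151 for Nrp1. Each family had at least 1 tested member, and the leading Robo and Slit genes, Robo1 (0.425 CPM per kb) and Slit3 (0.145), lay far below the leading plexins, semaphorins and Eph receptors.

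**Figure D1:**
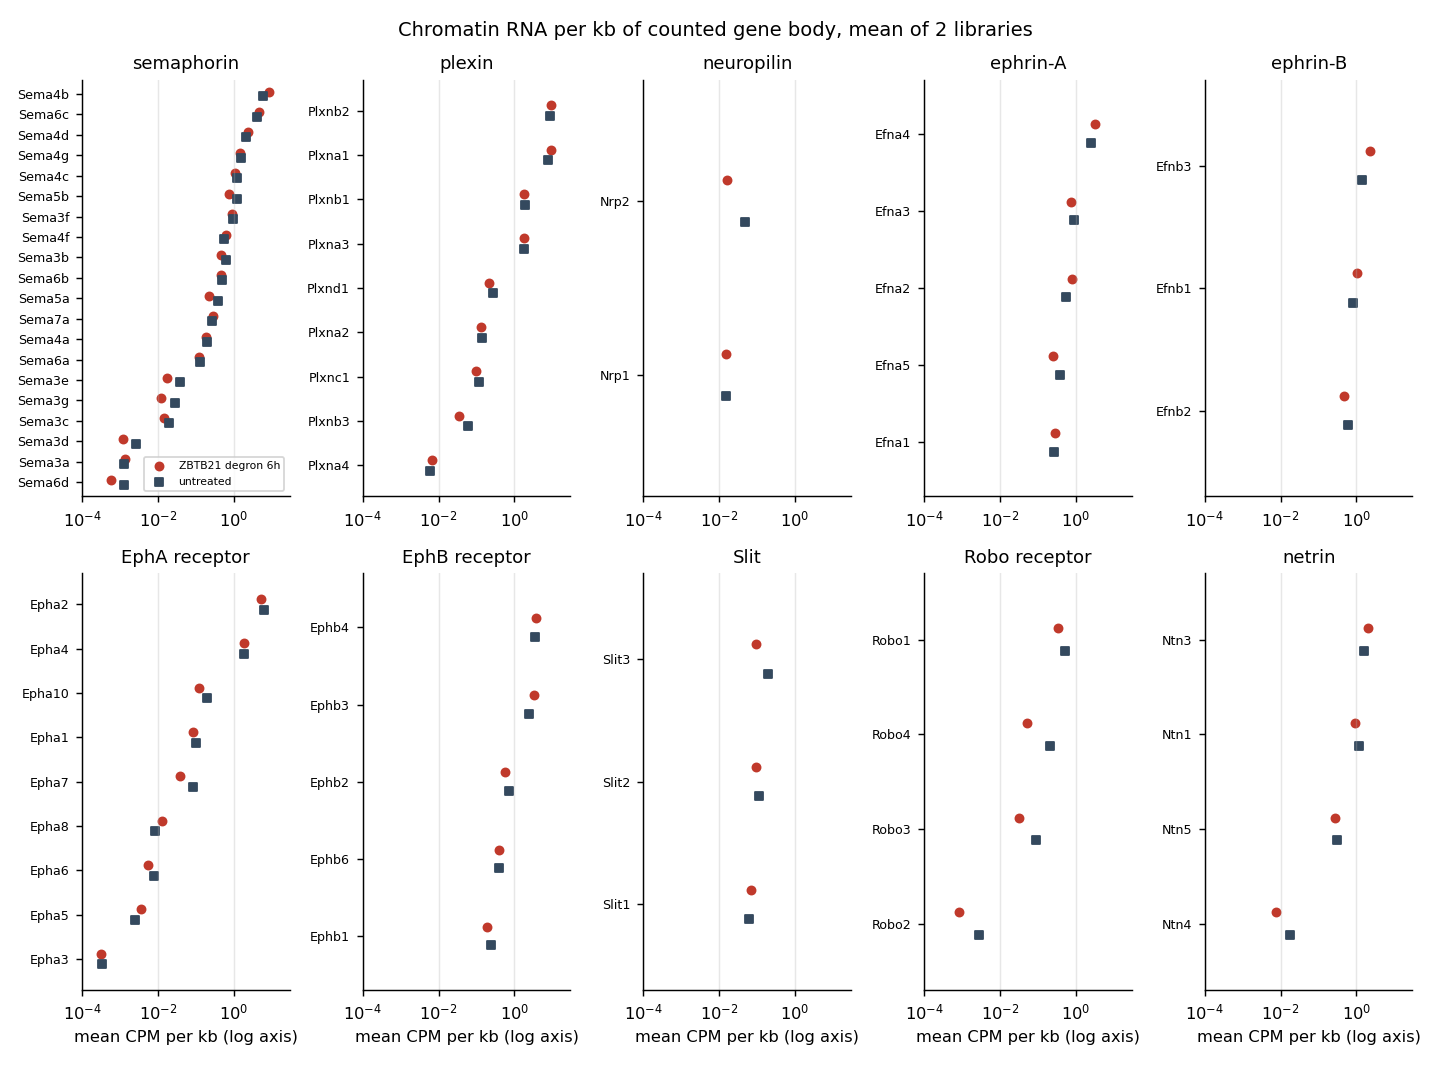
Mean CPM per kb of counted gene body on a log axis for the 64 members, 1 panel per family, with ZBTB21 degron 6h (circles, mean of 2 libraries) drawn above untreated (squares, mean of 2 libraries). Plxnb2, Plxna1 and Sema4b were the members of highest level, and Epha3 was the lowest.

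After ZBTB21 depletion, 5 of the 52 tested members rose and 15 fell, and 32 passed in neither direction (edgeR quasi-likelihood test, Benjamini-Hochberg over 14361 tested genes at 0.05). The members that rose were Efnb3, Sema4b, Ephb3, Plxna1 and Sema4d, which is 9.62% of the tested members, beside 20.3% of all tested genes. The members that fell were Robo4, Nrp2, Sema3e, Epha7, Slit3, Sema5a, Epha10, Sema5b, Efna5, Robo1, Ephb1, Efnb2, Ntn1, Ephb2 and Epha2, which is 28.8%, beside 19.8% of all tested genes. Robo4 reached the filter minimum of 10 counts only in the untreated libraries, so it entered the tested set through the group where it was higher. Nrp2 reached that minimum in both untreated libraries (24 counts each) but not in ZBTB21 degron 6h replicate 1 (9 counts). The median log2 fold change (ZBTB21 degron 6h over untreated) of the tested members was -0.12, with a median of -0.00075 over all tested genes. In 32 of the 52 members the CPM of the groups did not overlap, as in 69.0% of all tested genes.

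Of the 20 members that changed, 14 (3 higher and 11 lower) stayed past the threshold whichever library was left out. With DESeq2, 12 of the 20 passed, and Ephb3, Sema4d, Efnb3 and Efnb2 did not (adjusted p = 0.0627, 0.0634, 0.111 and 0.246), while Robo4, Nrp2, Sema3e and Epha10 received no adjusted p. DESeq2 called 14.7% of its genes higher and 13.9% lower.

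**Figure D2:**
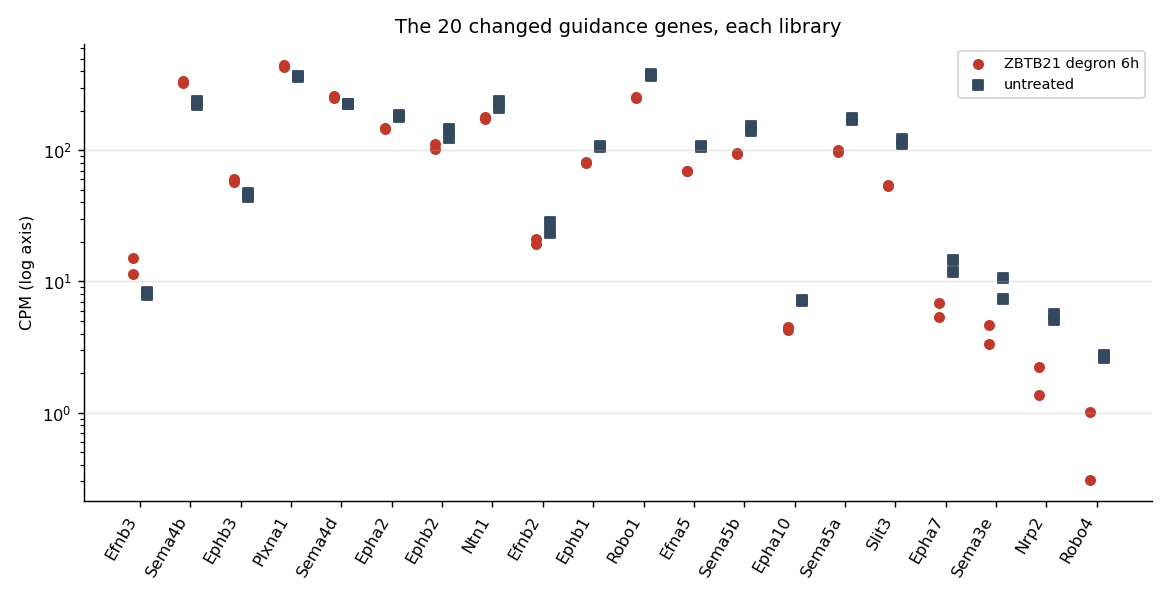
CPM on a log axis in each library for the 20 members that passed the test, with the 2 ZBTB21 degron 6h libraries (circles) left of the 2 untreated libraries (squares), in order of log2 fold change. The groups did not overlap for any of the 20, and Robo4 had the lowest CPM, 0.304 in a ZBTB21 degron 6h library.

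Among the semaphorins, 2 class 4 members rose and both class 5 members and 1 class 3 member fell. These were 12.5% and 18.8% of the 16 tested, beside 20.3% and 19.8% of all tested genes. Sema4b, a transmembrane semaphorin (chromosome 7, 80186841 to 80226527, plus strand, 39.7 kb), had 325 and 334 CPM in ZBTB21 degron 6h libraries, against 236 and 220 CPM in untreated libraries. Its mean of 329 ± 6.26 CPM after depletion exceeded 228 ± 11.5 CPM in untreated cells (SD, n = 2 each) by more than the spread within either group, and it rose by 0.53 ± 0.06 on the log2 scale (SE; edgeR adjusted p = 3.3e-10). Its windows are the first printed above.

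Sema4d, a membrane ligand of Plxnb1 (chromosome 13, 51685529 to 51793747, minus strand, 108 kb), had 251 and 260 CPM in ZBTB21 degron 6h libraries and 225 CPM in each untreated library. The groups stood apart, but the difference was small, 0.18 ± 0.06 (edgeR adjusted p = 0.00901). Without ZBTB21 degron 6h replicate 2 it no longer passed (0.16, edgeR adjusted p = 0.0622). The other class 4 genes Sema4a, Sema4c, Sema4f and Sema4g passed in neither direction and had overlapping groups.

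Sema5a and Sema5b are transmembrane semaphorins with thrombospondin repeats, and both were lower in every depleted library. Sema5a (chromosome 15, 32244810 to 32696341, plus strand, 452 kb) had 101 and 97.0 CPM in ZBTB21 degron 6h libraries, against 175 and 171 CPM in untreated libraries, and fell by 0.80 ± 0.07 on the log2 scale (edgeR adjusted p = 1.49e-12). Sema5b (chromosome 16, 35541145 to 35664732, plus strand, 124 kb) had 95.5 and 94.2 CPM in ZBTB21 degron 6h libraries and 153 and 140 CPM in untreated libraries, and changed by -0.63 ± 0.07 in log2 (edgeR adjusted p = 2.88e-09). The values of Sema5a and Sema5b did not overlap between groups, and both genes are known as cues for growing axons.

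Sema3e, a secreted ligand of Plxnd1 (chromosome 5, 14025276 to 14256689, plus strand, 231 kb), was scarce, with 3.34 and 4.66 CPM in ZBTB21 degron 6h libraries and 7.4 and 10.7 CPM in untreated libraries. It fell by 1.19 ± 0.28 on the log2 scale (edgeR adjusted p = 0.000682). Its groups stood apart although the untreated libraries themselves differed. Sema6c, a transmembrane ligand and the highest class 6 gene per kb, had 59.7 and 62.0 CPM after depletion and 56.6 and 52.9 CPM in untreated libraries and did not pass the test (edgeR adjusted p = 0.223).

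Of the receptors for semaphorins, 1 of 8 tested plexins rose and none fell, and 1 of 2 neuropilins fell, beside 20.3% higher and 19.8% lower of all tested genes. Plxna1, a receptor that works with neuropilins (chromosome 6, 89316314 to 89362620, minus strand, 46.3 kb), had 448 and 428 CPM in ZBTB21 degron 6h libraries, against 369 and 361 CPM in untreated libraries. The log2 fold change was 0.26 ± 0.05 (edgeR adjusted p = 3.68e-05). Genes on the opposite strand cover 27.5% of Plxna1, and the counting's strand setting is not stated. Of these, Gm26811 was tested and had 15 and 13 CPM in ZBTB21 degron 6h libraries and 10.4 and 11.6 CPM in untreated libraries.

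Plxnb2, the plexin of highest level per kb, had 225 and 235 CPM in ZBTB21 degron 6h libraries and 220 and 215 CPM in untreated libraries. Its groups were adjacent, and it did not pass the test (log2 fold change 0.08, edgeR adjusted p = 0.285). Plxnd1, the receptor of Sema3e, had 9.72 and 6.89 CPM in ZBTB21 degron 6h libraries and 11.6 and 9.96 CPM in untreated libraries, which did not pass either (edgeR adjusted p = 0.21). Plxna4, a receptor with neuropilins and among the 5 longest tested members (444 kb), had 2.89 and 3.24 CPM in ZBTB21 degron 6h libraries and 2.96 and 2.37 CPM in untreated libraries, with overlapping groups (log2 fold change 0.18, edgeR adjusted p = 0.745).

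Nrp2, a co-receptor for class 3 semaphorins (chromosome 1, 62703285 to 62818695, plus strand, 115 kb), had 1.37 and 2.23 CPM in ZBTB21 degron 6h libraries, against 5.07 and 5.69 CPM in untreated libraries. Every depleted library was below every untreated one, and the log2 difference was -1.61 ± 0.37 (edgeR adjusted p = 0.000509). Its relative Nrp1 had 1.82 and 2.43 CPM in ZBTB21 degron 6h libraries and 2.11 and 2.37 CPM in untreated libraries, so that its groups overlapped, and it did not pass the test (edgeR adjusted p = 0.88). The difference between Nrp1 and Nrp2 was not tested.

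Among the 8 tested ephrins, 1 rose (Efnb3) and 2 fell (Efnb2 and Efna5), beside 20.3% higher and 19.8% lower of all tested genes. Efnb3, a transmembrane ligand of EphB receptors and the third-shortest tested member (chromosome 11, 69554092 to 69560205, minus strand, 6.11 kb), had 11.4 and 15.2 CPM in ZBTB21 degron 6h libraries, against 7.82 and 8.3 CPM in untreated libraries. The groups stood apart, and the log2 difference was 0.70 ± 0.22 (edgeR adjusted p = 0.00864). It no longer passed without ZBTB21 degron 6h replicate 2 (0.51, edgeR adjusted p = 0.104) or without untreated replicate 1 (0.66, edgeR adjusted p = 0.0577).

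Efna5, a ligand held in the membrane by a lipid anchor (chromosome 17, 62604184 to 62881317, minus strand, 277 kb), had 69.1 and 69.9 CPM in ZBTB21 degron 6h libraries, against 107 and 106 CPM in untreated libraries. Replicates lay close together and the groups far apart, with a log2 difference of -0.62 ± 0.08 (edgeR adjusted p = 3.56e-08). Efnb2, the vessel-forming partner of Ephb4 (chromosome 8, 8617434 to 8661242, minus strand, 43.8 kb), had 19.4 and 20.9 CPM in ZBTB21 degron 6h libraries and 28.5 and 23.2 CPM in untreated libraries. Its change of -0.37 ± 0.15 (edgeR adjusted p = 0.0381) did not pass without ZBTB21 degron 6h replicate 1 (-0.31, adjusted p = 0.184) or without untreated replicate 1 (-0.20, adjusted p = 0.466). Other annotated genes on the same strand overlap 26% of Efnb2.

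The 4 other ephrin-A genes are short and none passed the test. Efna4, the highest of them per kb, had 14.1 and 14.4 CPM in ZBTB21 degron 6h libraries and 12 and 10.2 CPM in untreated libraries (log2 fold change 0.35, edgeR adjusted p = 0.145). Efna3 (-0.23, edgeR adjusted p = 0.487) and Efna1 (0.13, edgeR adjusted p = 0.829) had overlapping groups, and the sign of each turned when 1 library was left out: Efna3 was at 0.006 without ZBTB21 degron 6h replicate 2, and Efna1 at -0.011 without ZBTB21 degron 6h replicate 1.

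Of the 10 tested Eph receptors, 1 rose and 5 fell, beside 20.3% and 19.8% of all tested genes. Their median length was 92.4 kb, and with the length offset described below 2 were higher and 2 lower. Ephb3, a receptor of ephrin-B ligands (chromosome 16, 21204755 to 21223305, plus strand, 18.6 kb), had 60.6 and 57.3 CPM in ZBTB21 degron 6h libraries, against 47.1 and 44.3 CPM in untreated libraries, and rose by 0.37 ± 0.10 (log2, edgeR adjusted p = 0.00264). Its EphB relatives Ephb1 and Ephb2, on much longer genes, were lower after depletion. Ephb1 (chromosome 9, 101922128 to 102354693, minus strand, 433 kb) had 82.0 and 79.6 CPM in ZBTB21 degron 6h libraries and 108 and 105 CPM in untreated libraries (log2 fold change -0.39 ± 0.08, edgeR adjusted p = 8.78e-05). Ephb2 (chromosome 4, 136647539 to 136835988, minus strand, 188 kb) had 103 and 112 CPM in ZBTB21 degron 6h libraries and 146 and 124 CPM in untreated libraries. Its change of -0.34 ± 0.08 (edgeR adjusted p = 0.000426) rested on untreated replicate 1, without which it was -0.21 (edgeR adjusted p = 0.0694). Ephb4, the highest EphB gene per kb, did not pass (log2 fold change 0.08, edgeR adjusted p = 0.424).

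Epha2, the EphA receptor of highest level per kb (chromosome 4, 141301240 to 141329384, plus strand, 28.1 kb), had 148 and 145 CPM in ZBTB21 degron 6h libraries, against 185 and 178 CPM in untreated libraries. Both depleted libraries were lower, and the log2 difference was -0.31 ± 0.06 (edgeR adjusted p = 0.000144). Epha7 (chromosome 4, 28813131 to 28967499, plus strand, 154 kb) was scarcer, at 5.32 and 6.89 CPM in ZBTB21 degron 6h libraries and 14.6 and 11.9 CPM in untreated libraries, and fell by 1.14 ± 0.23 (log2, edgeR adjusted p = 7.17e-05). Epha10 (36.9 kb) had 4.25 and 4.46 CPM in ZBTB21 degron 6h libraries and 7.19 and 7.11 CPM in untreated libraries. Its change of -0.72 ± 0.28 (edgeR adjusted p = 0.0358) was lost whichever of the 4 libraries was left out, with adjusted p between 0.077 and 0.148.

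Epha4, a receptor that binds ephrins of both classes (148 kb), was among the members of highest CPM. It had 271 CPM in each ZBTB21 degron 6h library and 293 and 268 CPM in the untreated libraries. Per kb it stood lower, at 1.87 CPM, below Epha2 and Ephb4. The groups overlapped and it did not pass (log2 fold change -0.05, edgeR adjusted p = 0.475), and without untreated replicate 1 the sign was positive (0.021). Epha6, the longest tested member (952 kb), had 5.16 and 5.06 CPM in ZBTB21 degron 6h libraries and 7.4 and 7.35 CPM in untreated libraries, which did not pass the test (-0.53 ± 0.27, edgeR adjusted p = 0.114).

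In the Slit and Robo families, 3 of 5 tested genes fell and none rose, beside 19.8% lower and 20.3% higher of all tested genes. All of the 5 but Robo4 are over 100 kb, where 60.9% of all tested protein-coding genes were lower. Slit3, a secreted Robo ligand (chromosome 11, 35121224 to 35708507, plus strand, 587 kb), had 53.5 and 54.3 CPM in ZBTB21 degron 6h libraries, against 121 and 111 CPM in untreated libraries. Its log2 fold change of -1.11 ± 0.08 had the smallest adjusted p of all members (edgeR, 3.04e-14). The ligands Slit1 and Slit2 did not pass: Slit1 had 8.66 and 10.5 CPM in ZBTB21 degron 6h libraries and 9.09 and 8.77 CPM in untreated libraries, and Slit2 had 29.3 and 31.4 CPM in ZBTB21 degron 6h libraries and 31.3 and 39.6 CPM in untreated libraries. Both had overlapping groups, but a single library decided each: Slit1 (log2 fold change 0.08, edgeR adjusted p = 0.796) was at -0.041 without ZBTB21 degron 6h replicate 2, and Slit2 (-0.22, edgeR adjusted p = 0.165) reached -0.38 without untreated replicate 1 (edgeR adjusted p = 0.0433). The differences between the 3 Slit genes were not tested.

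Robo1, a Slit receptor and the highest Robo gene per kb (chromosome 16, 72308306 to 73046095, plus strand, 738 kb), had 256 and 250 CPM in ZBTB21 degron 6h libraries, against 380 and 368 CPM in untreated libraries. It fell by 0.57 ± 0.05 on the log2 scale (edgeR adjusted p = 1.24e-11). Robo4, the Robo gene of vessel endothelium (chromosome 9, 37401897 to 37415115, plus strand, 13.2 kb), had 2 and 5 counts in ZBTB21 degron 6h libraries and 13 and 11 counts in untreated libraries. Its fitted change of -2.10 ± 0.56 (edgeR adjusted p = 0.00255) rested on few reads, and without ZBTB21 degron 6h replicate 1 it was -1.38 and did not pass (edgeR adjusted p = 0.156).

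Among the 3 tested netrins, Ntn1 fell and none rose, beside 19.8% lower and 20.3% higher of all tested genes. Ntn1, the secreted ligand of Dcc (chromosome 11, 68209364 to 68400823, minus strand, 191 kb), had 180 and 173 CPM in ZBTB21 degron 6h libraries, against 238 and 209 CPM in untreated libraries, which is a log2 difference of -0.34 ± 0.06 (edgeR adjusted p = 2.58e-05). Ntn3, among the shortest members (5.68 kb), had 9.11 and 12.8 CPM in ZBTB21 degron 6h libraries and 8.03 and 9.01 CPM in untreated libraries and did not pass (edgeR adjusted p = 0.244). Tbc1d24, which shares 30.2% of Ntn3 on the same strand, rose by 0.45 (log2, edgeR adjusted p = 1.37e-05). Of the netrin receptors, the neogenin gene Neo1 (162 kb) had 168 and 180 CPM in ZBTB21 degron 6h libraries and 215 and 205 CPM in untreated libraries (-0.28 ± 0.06, edgeR adjusted p = 0.000341). Opposite-strand genes cover 33.8% of Neo1. Dcc, on a gene of 1100 kb, had 1.97 and 2.03 CPM in ZBTB21 degron 6h libraries and 3.59 and 3.56 CPM in untreated libraries and did not pass (edgeR adjusted p = 0.0856).

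The members that fell were mostly on long genes. Members that rose had a median length of 39.7 kb (6.11 to 108 kb), and members that fell had a median of 188 kb (13.2 to 738 kb). Over the 52 tested members, Spearman's rho between gene length and the log2 fold change was -0.52, beside -0.51 over 12600 tested protein-coding genes. These are descriptions across genes, which share the same 4 libraries and are not independent replicates, and the counts of a gene grow with its length. The log2 ratio of the replicates within a group had a rho with length of 0.06 in the ZBTB21 degron 6h pair and -0.08 in the untreated pair.

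By length, members under 25 kb had 2 of 19 tested genes higher (10.5%) and 1 lower (5.26%), while 33.2% of all tested protein-coding genes of this class were higher and 4.21% lower. Their median log2 fold change was -0.0075, beside 0.21 for the class, and it turned positive with any 1 library left out (0.033 to 0.095) and with total counts (0.018). Between 25 and 100 kb, 2 of 11 members were higher (18.2%) and 3 lower (27.3%), beside 15.9% and 25.3% of the class, with medians of -0.07 and -0.10, and the members' median was 0.0654 without untreated replicate 1. Over 100 kb, 1 of 22 was higher (4.55%) and 11 lower (50.0%), beside 3.48% and 60.9% of the class, with medians of -0.37 and -0.34. The share of long members that fell was thus not above that of other long genes, and no test of members against other genes of their length was made.

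**Figure D3:**
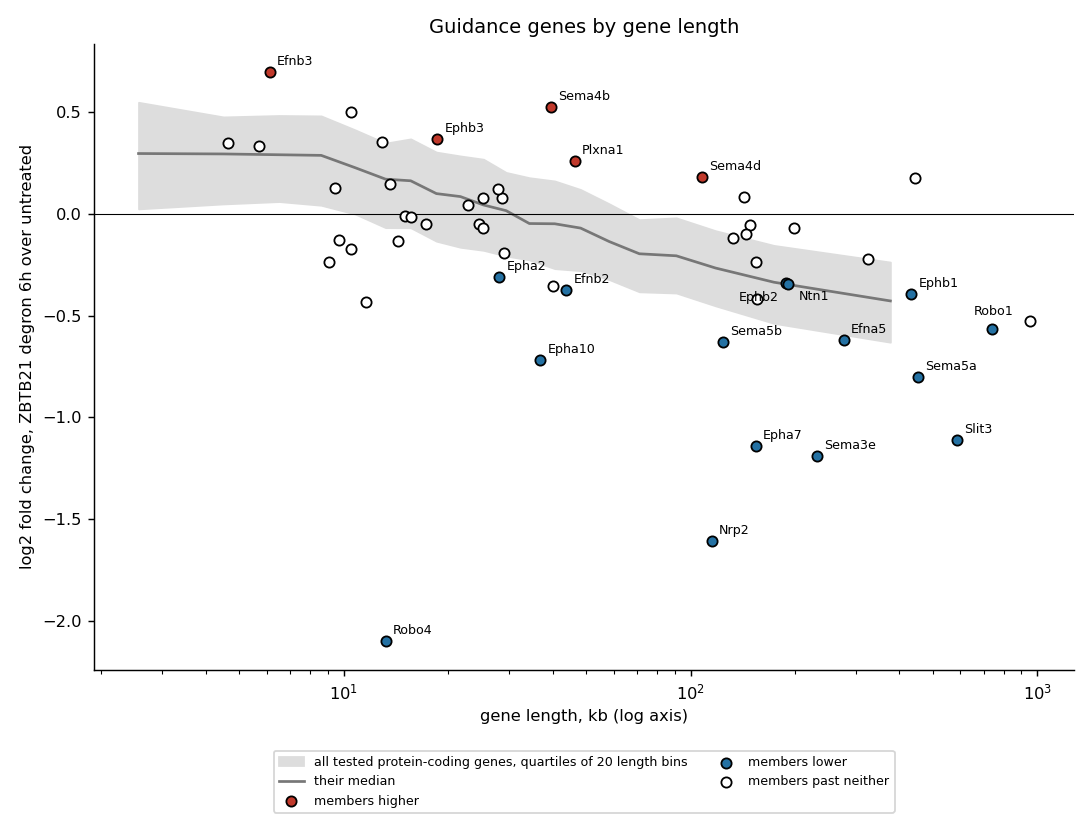
Log2 fold change (ZBTB21 degron 6h over untreated) against gene length in kb on a log axis for the 52 tested members, with the median (line) and quartiles (grey band) of all tested protein-coding genes in length bins. Robo1, Ephb1, Ephb2 and Ntn1 lie by the course of other long genes, while Slit3, Nrp2, Epha7 and Sema3e lie below it and Sema4b and Sema4d above it.

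To set each member beside genes of like length, the counts were refitted with an offset that removes, in each library, the smooth course of level over gene length. Of all tested genes, 16.3% were then higher and 11.8% lower. Of the 52 members, 5 were higher (Sema4b, Sema4d, Plxna1, Epha4 and Ephb3) and 9 lower (Robo4, Nrp2, Epha7, Sema3e, Slit3, Sema5b, Sema5a, Epha2 and Efna5). The median member was at -0.04, and rho with length was 0.05. Of the 20 calls, 13 held under both scalings.

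Several long genes that had fallen no longer passed under this scaling. Robo1 was at -0.06 (edgeR adjusted p = 0.469), Ntn1 at -0.0077 (edgeR adjusted p = 0.946), Ephb2 at -0.0062 (edgeR adjusted p = 0.965) and Ephb1 at 0.06 (edgeR adjusted p = 0.643). Epha6, which had not passed before, was at 0.0055. The ligands Slit3 (-0.63, edgeR adjusted p = 2.03e-08), Sema5b (-0.37, edgeR adjusted p = 6.39e-05), Sema5a (-0.35, edgeR adjusted p = 6.05e-05) and Efna5 (-0.23, edgeR adjusted p = 0.0222) stayed lower, with smaller sizes. Nrp2 (-1.36), Epha7 (-0.84), Sema3e (-0.83) and Epha2 (-0.33) also stayed lower, and for Epha2, on a gene of 28.1 kb, the scaling changed little.

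The members of the higher side separated likewise. Sema4d, at 108 kb, was at 0.42 ± 0.06 with the length offset (edgeR adjusted p = 2.73e-08), more than its 0.18 without it. Sema4b was at 0.57 and Plxna1 at 0.34 with the offset, beside 0.53 and 0.26 without it. Epha4 passed only with the offset (0.24, edgeR adjusted p = 0.000624). Efnb3 passed only without it and was at 0.45 with it (edgeR adjusted p = 0.117). Efnb2 (-0.31, adjusted p = 0.112) and Epha10 (-0.68, adjusted p = 0.0599) were also no longer past the edgeR threshold.

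**Figure D4:**
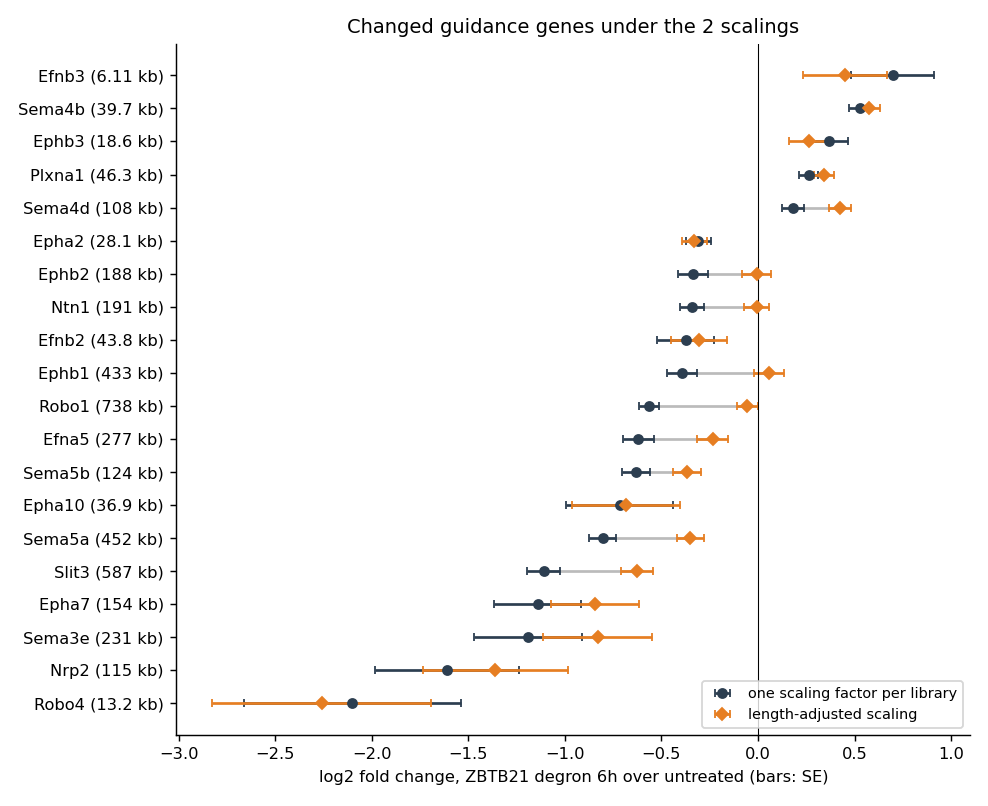
Log2 fold change (ZBTB21 degron 6h over untreated, bars are SE, 2 libraries per group) of the 20 members that changed, with the usual scaling (circles) and with the length offset (diamonds), gene length beside each name. Robo1, Ntn1, Ephb2 and Ephb1 lie near 0 with the offset, and Slit3, Sema5a and Sema5b stay below 0.

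The other genes of guidance signalling were taken from a list of 72 receptors, adaptors, kinases and cytoskeletal effectors outside the member families, of which 67 were tested. In them 8 rose (11.9%) and 25 fell (37.3%), beside 20.3% and 19.8% of all tested genes, with a median log2 fold change of -0.11. Of its genes over 100 kb, 21 of 32 tested were lower, beside 60.9% of all protein-coding genes of that class. The 5 genes of smallest adjusted p in each direction are given next. Vasp, which promotes actin filament growth, had 141 and 143 CPM in ZBTB21 degron 6h libraries and 97.2 and 93.7 CPM in untreated libraries (0.57 ± 0.07, edgeR adjusted p = 2.52e-08). Cfl1, the filament-severing cofilin, rose by 0.61, the glypican Gpc1 by 0.36, the plexin-linked oxidase Mical1 by 0.45 and the neogenin ligand Rgma by 0.43 (edgeR adjusted p = 2.05e-06, 0.0012, 0.00153 and 0.00372). Genes on the opposite strand cover 62.5% of Cfl1 and 47.4% of Gpc1, so with the strand setting unknown their counts may hold reads of those genes. Mical1 did not pass without untreated replicate 2 (0.29, adjusted p = 0.0832), nor Rgma without ZBTB21 degron 6h replicate 1 (0.37, adjusted p = 0.0513), and without untreated replicate 2 only 4 genes of the list rose. With DESeq2, Rgma did not pass (adjusted p = 0.0805). Other genes that act on actin moved differently, and they are longer than Vasp (14.9 kb) and Cfl1 (4.75 kb). Evl, of the Vasp family (134 kb), fell by 0.23 (edgeR adjusted p = 0.00315). The kinases Rock1 (118 kb) and Rock2 (92.9 kb) fell by 0.42 and 0.35 (edgeR adjusted p = 2.52e-05 and 0.00011).

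Of the genes that fell, Farp1, a guanine exchange factor bound by plexins (249 kb), had 187 and 186 CPM in ZBTB21 degron 6h libraries and 301 CPM in each untreated library (-0.69 ± 0.06, edgeR adjusted p = 3.13e-13). The kinases Fyn (197 kb, -0.66, edgeR adjusted p = 5.82e-11) and Fer (276 kb, -0.51, edgeR adjusted p = 4.32e-08) fell as well. So did the Robo-binding GTPase activators Srgap1 (266 kb, -0.43, edgeR adjusted p = 8.69e-08) and Srgap2 (242 kb, -0.36, edgeR adjusted p = 1.63e-07). Their relative Srgap3 (229 kb) leaned the other way and did not pass (0.18, edgeR adjusted p = 0.0592). Larger falls with larger adjusted p were those of the adhesion molecule Nrcam (-1.01, edgeR adjusted p = 0.00114) and the exchange factor Vav3 (-0.95, edgeR adjusted p = 0.000318). With the length offset, 14 genes of the list were higher and 3 lower (Farp1, Fyn and Dpysl2), beside 16.3% and 11.8% of all tested genes, and rho with length over 67 genes was -0.15, beside -0.68 without it. Srgap3 (0.54, edgeR adjusted p = 6.53e-08), Tiam1 (0.47) and Mical3 (0.43) were among those higher only with the offset. Of the 8 genes that rose, Vasp, Cfl1, Gpc1 and Rgma stayed higher, and the 4 others, Mical1 among them (0.25, edgeR adjusted p = 0.0963), no longer passed. Farp1 was then at -0.32 and Fyn at -0.32, while Nrcam, Vav3, Rock1, Rock2, Evl (0.05), Fer (-0.13), Srgap1 (-0.05), Srgap2 (0.0079) and Neo1 (0.03) no longer passed. Unc5d, a netrin receptor, turned with the scaling: it was at -0.25 (edgeR adjusted p = 0.0235) without the offset, a call that was lost whichever library was left out, and at 0.23 (edgeR adjusted p = 0.0405) with it.

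The 12 members that could not be tested had at most 10 counts in any library. They were the receptors Epha1, Epha3, Epha5, Epha8, Robo2, Robo3 and Plxnb3 and the ligands Ntn4, Sema3a, Sema3d, Sema3g and Sema6d. Epha1, the best counted, had 7 counts in each ZBTB21 degron 6h library and 7 and 6 counts in untreated libraries. Robo3, whose protein acts in commissural axons, had 2 and 4 counts in ZBTB21 degron 6h libraries and 10 and 4 counts in untreated libraries. At this depth no difference could be measured for these genes.

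The libraries carried the profile of pluripotent cells in both groups. The summed level of 7 pluripotency markers was 2710 and 2670 CPM in ZBTB21 degron 6h libraries and 2110 and 2130 CPM in untreated libraries. Of the 6 tested markers, 5 were higher, beside 20.3% of all tested genes, and the seventh, Dppa5a, was at 0.237 CPM or less. Zfp42 moved the other way, with means of 417 CPM after depletion and 447 CPM in untreated libraries (-0.10, edgeR adjusted p = 0.103). With the length offset it was lower (-0.285, edgeR adjusted p = 1.25e-05). Pou5f1, Nanog and Klf4 (4.75, 7.14 and 5.32 kb) are under 25 kb, where 33.2% of all tested protein-coding genes were higher. Neural markers summed to 46.5 and 45.0 CPM in ZBTB21 degron 6h libraries and 56.2 and 51.5 CPM in untreated libraries. Of the 9 neural genes, 5 were tested and 1 fell (Pax6), and Tubb3, Sox1, Dcx and Neurod1 were at 0 in all libraries. Other annotated genes on the same strand cover 100% of Tubb3, Sox1 and Neurod1, so their 0 may not mean absent RNA. Endoderm markers summed to 18.6 and 15.8 CPM in ZBTB21 degron 6h libraries and 27.0 and 21.3 CPM in untreated libraries, with Gata6 lower and Afp at 0 in all. Fibroblast markers lay at 17.1 and 16.4 CPM after depletion and 24.7 and 20.6 CPM in untreated libraries, with Dcn at 0 in all, and mesoderm markers at 6.24 and 6.08 CPM after depletion and 9.52 and 5.45 CPM in untreated libraries. Endothelial markers were mostly Pecam1, which stem cells also express and which was higher, and summed to 257 and 245 CPM after depletion and 236 and 225 CPM in untreated libraries, with Cdh5 at most 0.948 CPM. The scarce members that fell, Nrp2, Sema3e, Epha7, Epha10 and Robo4, moved in the same direction as the neural, endoderm and fibroblast sums. The endothelial sum, mostly Pecam1, moved the other way. Without and with the length offset, Map2 (267 kb) was at -0.375 and 0.00446, Rbfox3 (422 kb) at -0.283 and 0.159, and Nes at 0.021 and -0.197. Pax6 (-1.0 and -1.02) and Elavl3 (-0.425 and -0.391) changed little with it. The mesoderm sums overlapped between groups. Of the genes in the neural, endoderm and fibroblast sums only Pax6 and Gata6 passed the test, with at most 21 counts in any library. Gata6 reached the filter minimum of 10 counts only in the untreated libraries (11 and 13 counts, against 6 and 7 after depletion). With the length offset neither passed (edgeR adjusted p = 0.0534 for Pax6 and 0.0542 for Gata6), while Thy1 was lower (-0.872, edgeR adjusted p = 0.0247). The part of such cells in the change of these members was not tested.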

How the data were processed

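RNA of the chromatin fraction was sequenced in 4 libraries, 2 per group. Per the labels, the authors trimmed reads with cutadapt 2.6 and counted them with featureCounts 1.6.3 on mm10, with dm6 for a fly spike-in; the labels list STAR 2.7.6a and the study's methods name bowtie2 as mapper. The deposited values are raw counts per gene body, starting 300 bp after the gene start, with PCR duplicates removed. The strand setting is not given in the sources used here, so overlapping genes may share or lose reads.

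Identifiers were matched to GENCODE M21 (36770 of 36918). Genes passing filterByExpr (minimum count 10, minimum total 15) were fitted in edgeR 4.0.16 (R 4.3.3, limma 3.58.1) with TMM, robust dispersions and the two-sided quasi-likelihood F test, with p adjusted by Benjamini-Hochberg across the tested genes (threshold 0.05). The length offset was a loess curve (span 0.3) per library. DESeq2 1.42.0, other scalings and filters, a replicate block and leaving out each library were alternatives. Scripts were tested on simulated data. Replicates differed by more than counting noise, with a chi-square over its degrees of freedom of 1.39 in ZBTB21 degron 6h and 1.3 in untreated, and were kept as separate samples. Called members with a mean of at least 50 counts, the top member per kb of each family, the 5 longest and 5 shortest tested members and 5 genes per direction of the other list were named by rule, and the remaining names were chosen after their values were seen. Members and lists were chosen with earlier results of these data known.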

Additional observations from a re-analysis of the deposited data

How the results depend on the processing

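Among the members, 5 were higher and 15 lower. With DESeq2 the counts were 2 and 10, with an absolute log2 fold change of at least 0.5 they were 2 and 10, and with the length offset they were 5 and 9. For the fold minimum and the fits without a library, the share over all tested genes is not given here. Leaving out a library gave 3 to 5 higher and 12 to 14 lower. Among the other guidance genes, 8 higher and 25 lower became 4 and 15 with DESeq2, 14 and 3 with the length offset, 15 and 5 with the length offset and the replicate block, and 2 and 6 with the fold minimum, while leaving out a library gave 4 to 8 higher and 17 to 22 lower.

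The median log2 fold change of members under 25 kb (-0.0075) was 0.13 among genes averaging 50 counts or more and -0.10 with the length offset, with or without the block, and 0.033 to 0.095 without a library. Between 25 and 100 kb (-0.07) it was 0.0636 with that count minimum, and -0.164 to 0.0654 without a library. Over 100 kb (-0.37) it was -0.33 without a filter, -0.00036 with the length offset and -0.0019 with offset and block, and -0.41 to -0.37 without a library.

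Directions turned with the length offset, without and with the block, for rho with length (0.052 and 0.054), Ephb1 (0.055 and 0.054), Epha6 (0.006 and 0.005), Efna1 (-0.088 and -0.094), Srgap2 (0.008 and 0.009), Neo1 (0.030 and 0.029), Unc5d (0.234 and 0.235), Epha4 (0.242 and 0.241), Slit2 (0.186 and 0.197) and Nrp1 (0.188 and 0.201). They turned without ZBTB21 degron 6h replicate 1 for Efna1 (-0.011, at most 0.234 without any other library) and Nrp1 (0.125, and -0.286 without ZBTB21 degron 6h replicate 2), without ZBTB21 degron 6h replicate 2 for Efna3 (0.006, and -0.603 without ZBTB21 degron 6h replicate 1) and Slit1 (-0.041), and without untreated replicate 1 for Epha4 (0.021). The cause was not tested, beyond what the offset removes by construction.

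Same-numbered libraries did not deviate together (correlation 0.0239). The replicate block left 5 members higher and 15 lower and changed no call of a named gene. Genes with few counts, such as Robo4 and Nrp2, are limited by depth, and 12 members could not be tested. A shift common to all genes could not be measured.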
